A study of Rattus norvegicus with 70 samples.

Results

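Adipose tissue of male Wistar-Kyoto rats was compared after ozone and after air by sequencing of messenger RNA. The Wistar-Kyoto rat is inbred, and ozone, an oxidant gas, reacts mainly with the lining of the airways. The ozone group held 5 libraries, numbered 16, 19, 21, 22 and 23, from rats that breathed 0.8 ppm ozone for 4 h, and the air group held 5 libraries, numbered 2, 5, 6, 9 and 12, from rats that breathed air for 4 h. These 10 libraries were taken, by tissue and exposure in their titles, from 70 in the labels, of which 68 could be matched to a column. The other libraries came from lung, liver, adrenal gland, hypothalamus and skeletal muscle. The labels give neither the fat depot, the age of the rats nor the interval between exposure and sampling. Per the labels' protocols, 5 ozone and 5 air adipose samples passed quality control, RNA came from a Qiagen kit for lipid tissue, mRNA was selected on an Apollo324 system, and the libraries were sequenced on a NextSeq instrument. Nothing in the labels states that every library is from its own rat, so the p-values reflect spread between libraries, which may be partly technical. Ozone libraries carry numbers from 16 up and air libraries numbers up to 12, so an order or time of handling that followed the numbers cannot be told apart from ozone.

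White adipose tissue stores triglyceride in large droplets and releases fatty acids when noradrenaline acts on beta-adrenergic receptors and raises cyclic AMP. Insulin opposes this release and promotes glucose uptake and fat synthesis, and glucocorticoids, the steroid hormones of the adrenal cortex, act on adipocytes through the glucocorticoid receptor. The tissue also secretes hormones and clotting regulators, and it holds endothelial cells, macrophages, lymphocytes, fibroblast-like progenitors and, in some depots, a mesothelial covering.

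Each library held between 14227133 and 18848151 recovered reads, and mitochondrially encoded genes took 2.73 to 4.51% of the ozone libraries and 2.44 to 4.65% of the air libraries. The defining adipocyte markers were high in all 10 libraries, with a summed deposited value of 14 markers from 422634 to 635720 after ozone and from 343986 to 489880 in air. Of these 14 markers Cidec rose and Adrb3 fell, 7.14% each against 3.87% and 3.45% of all genes, and 12 did not pass. Brown-fat markers were low: 3 of 6, Ucp1 among them, were under the minimum for testing. Markers of 2 other tissue components varied by library in both exposures. Summed mesothelial markers were 13425 in ozone 22, 13803 in air 5 and 5637 in air 9, and between 342 and 1073 in the other libraries. Summed skeletal muscle markers were 1204 to 39066 after ozone and 3124 to 265317 in air, the highest value being that of air 2. None of the 12 mesothelial and 13 muscle markers tested passed in limma, 0 had an unadjusted p under 0.05, and edgeR and DESeq2 called 0. All 13 muscle markers nevertheless had negative fold changes (median -1.70), as did 9 of the 12 mesothelial markers (median -0.51). The part of these tissues in the results was not tested. The first principal component of the 10 libraries (27.4% of the variance) did not separate the exposures, while on the second (22.6%) all ozone libraries lay on one side and all air libraries on the other. Because the samples are whole tissue, fewer cells of a type and less RNA per cell cannot be told apart.

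**Figure D1:**
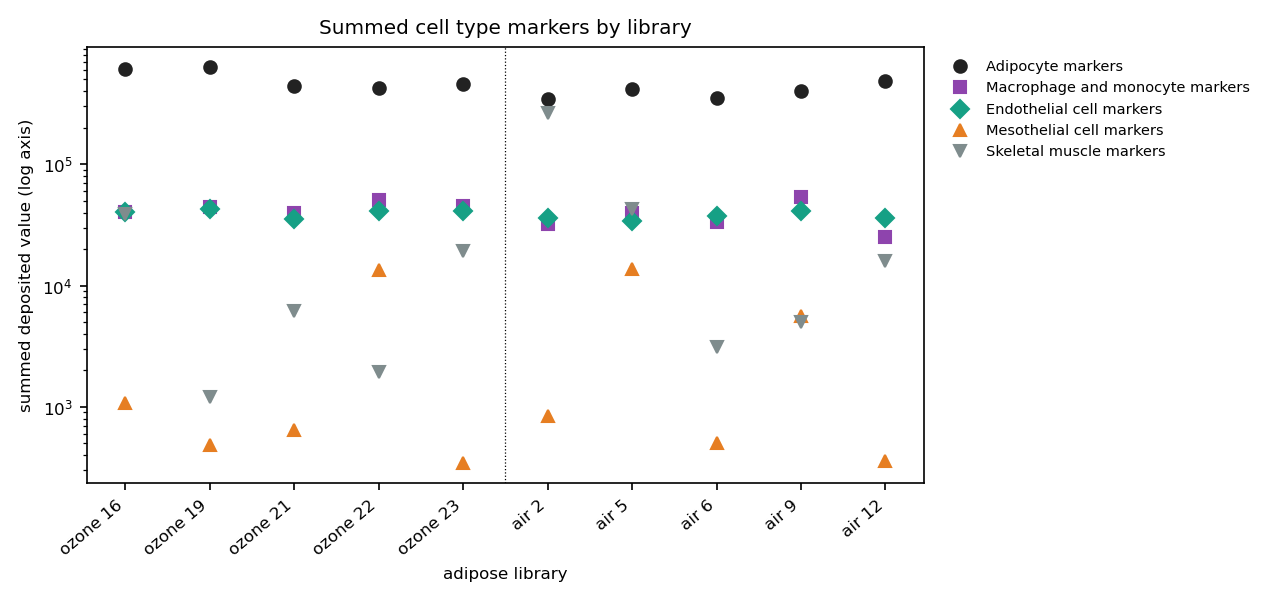
Summed deposited values (log axis) of 5 cell type marker lists in each adipose library, ozone libraries left of the dotted line and air libraries right of it. Adipocyte marker sums stay between 343986 and 635720, while mesothelial and skeletal muscle sums vary by library in both exposures.

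Of 14252 genes with a mean value of at least 10, 551 rose after ozone (3.87%) and 492 fell (3.45%), together 7.32%, at a limma adjusted p under 0.05. By at least 2-fold, 217 rose (1.52%) and 151 fell (1.06%). Every ozone library lay above every air library for 624 genes (4.38%) and below for 632 (4.43%), of which 448 had risen and 410 had fallen. The median log2 fold change of all genes tested was 0.0068, and the median standard error was 0.20. All fold changes are ozone over air, computed on log2(value + 1), so the changes of low genes are understated. Values are deposited normalised values, listed for ozone libraries 16, 19, 21, 22 and 23 and air libraries 2, 5, 6, 9 and 12 in that order. Counts of changed genes depend on the libraries. Without ozone 22 and air 5 and 9, which have the high mesothelial sums, 234 rose and 156 fell. Of the 1042 called genes still tested, 368 kept their call. All 1042 kept their direction, which is nearly given for genes called with the same libraries included. Of the 105 called genes examined by name, 35 lost their call in that fit: 21 that also lost it without a single library, and Adamts1, Adra1a, Tmprss2, Gdf5, Plin4, Dbp, Arntl, Myc, Gadd45a, P4ha1, Ppard, Il1r2, Nfkb2 and Kcnj8.

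**Figure D2:**
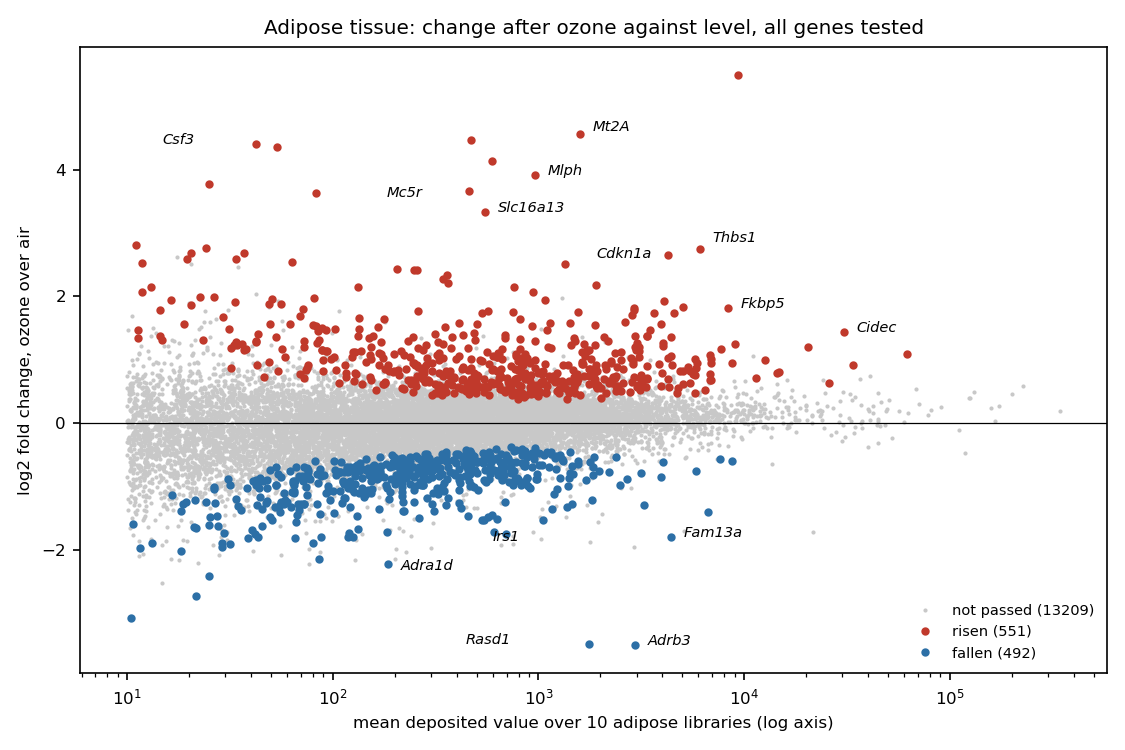
Log2 fold change, ozone over air, against the mean deposited value over the 10 adipose libraries (log axis) for the 14252 genes tested. Red points are the 551 genes that rose and blue points the 492 that fell. Mt2A (4.56), Mlph (3.91) and Slc16a13 (3.33) are among the high points, and Adrb3 (-3.50) and Rasd1 (-3.48) stand lowest among well-expressed genes.

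Thbs1, the matricellular protein thrombospondin 1 and an activator of latent TGF-beta, had 12766, 14036, 7430, 6859 and 11873 in ozone libraries, against 998, 2066, 1815, 790 and 2627 in air libraries. The exposures did not overlap (log2 fold change 2.75 ± 0.34, limma adjusted p = 0.00091). Cyr61, a secreted matrix protein of the CCN family, had 2527, 2251, 835, 3147 and 2560 in ozone libraries, against 191, 798, 363, 237 and 477 in air libraries. Ozone 21 was low and stood just above air 5, the highest air library (log2 fold change 2.51 ± 0.43, limma adjusted p = 0.00731).

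Of 19 coagulation and fibrinolysis genes tested, Thbs1 rose (5.26%, near the 3.87% of all genes) and 0 fell, with a list median of 0.11. Among 33 collagen and matrix genes 3 rose and 0 fell, with a median of 0.25 and 1 risen without the 3 libraries with high mesothelial sums. The 3 risen were 9.09% of the list, against 3.87% of all genes. The risen genes were Lox, the collagen cross-linking enzyme lysyl oxidase (4837 ± 1234 after ozone and 1907 ± 684 in air (SD, n = 5 each), log2 fold change 1.38 ± 0.25, limma adjusted p = 0.00752), and the secreted proteases Adamts1 (1.23 ± 0.24) and Adamts15. Agt, which encodes angiotensinogen, the precursor of angiotensin, averaged 28574 ± 7475 after ozone and 12442 ± 3467 in air (SD, n = 5 each). It rose without overlap, but ozone 21 at 17980.5 stood just above air 12 at 17492.3 (log2 fold change 1.20 ± 0.23, limma adjusted p = 0.009). Nepn, a small leucine-rich matrix proteoglycan, also rose (log2 fold change 2.54 ± 0.28, limma adjusted p = 0.000445). Has3, a hyaluronan synthase, fell to 22.9 to 38.2 after ozone, against 50.8 to 188 in air (log2 fold change -1.90 ± 0.32, limma adjusted p = 0.00447).

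**Figure D3:**
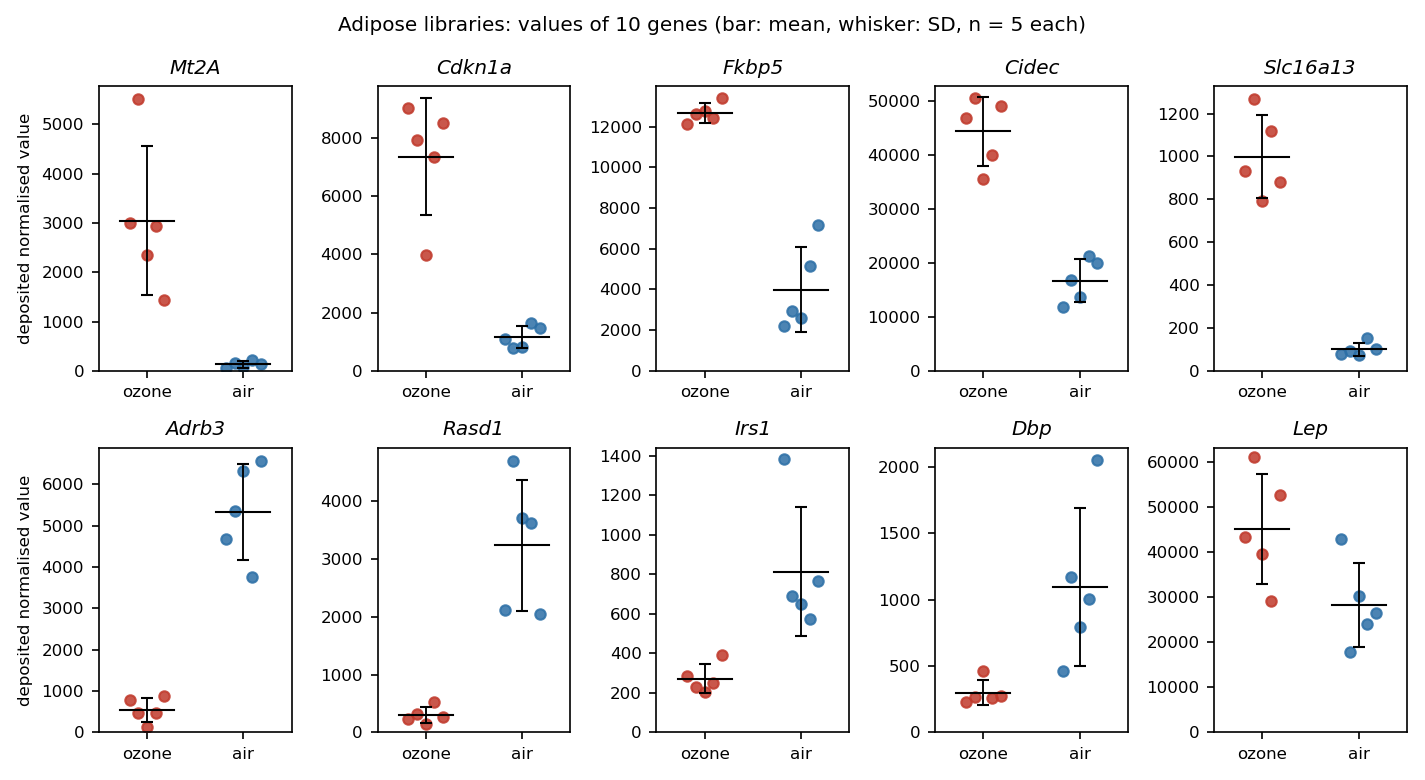
Deposited normalised values of 10 genes in each adipose library, ozone left of air in each panel, with the mean (bar) and SD (whisker) of 5 libraries. Ozone and air libraries do not overlap for 9 genes, and overlap for Lep, which did not pass the test.

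Metallothioneins, small cysteine-rich proteins that bind zinc and copper, are induced by metals through the factor MTF1 and also by glucocorticoids. The 250 bases before the start of Mt2A and Mt1 are shown because both genes rose strongly and both stretches hold repeated metal response element cores (TGCACNC or TGCGCNC on either strand, in capitals). The sequences are RefSeq's, on GRCr8, 5′ to 3′ on the minus strand, at chr19:10838709-10838958 for Mt2A and chr19:10832976-10833225 for Mt1.
Mt2A: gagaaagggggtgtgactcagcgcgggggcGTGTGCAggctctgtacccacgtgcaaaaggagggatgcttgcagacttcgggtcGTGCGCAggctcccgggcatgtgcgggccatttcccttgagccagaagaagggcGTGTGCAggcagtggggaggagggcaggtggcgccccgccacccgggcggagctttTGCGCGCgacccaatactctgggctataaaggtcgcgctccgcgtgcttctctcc
Mt1: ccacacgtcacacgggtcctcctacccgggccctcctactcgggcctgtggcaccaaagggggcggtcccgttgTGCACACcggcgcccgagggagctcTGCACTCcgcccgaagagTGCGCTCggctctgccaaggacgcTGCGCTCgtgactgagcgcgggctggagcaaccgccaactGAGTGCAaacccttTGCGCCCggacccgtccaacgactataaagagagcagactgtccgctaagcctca
The core was found 4 times before Mt2A and 6 times before Mt1. In the 300 bases around the start, at least 3 cores were present in 3.37% of 9967 promoters of tested genes and in 1.81% of all 27457 promoters. The share was 3.02% for risen genes (12 of 397) and 4% for fallen genes (15 of 375), so it was not higher in risen genes. The promoters of Hrh3 and Dbp, which fell after ozone, held 5 and 4 cores. A match of letters is not a measured binding site.

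Mt2A had 3007, 5505, 2340, 2945 and 1446 in ozone libraries, against 64.3, 158, 70, 225 and 135 in air libraries. The lowest ozone library, 1446, stood far above the highest air library, 225 (log2 fold change 4.56 ± 0.40, limma adjusted p = 0.00018). Mt1 had 994, 1962, 498, 1663 and 504 in ozone libraries, against 35.1, 91.6, 29.8, 102 and 45.6 in air libraries. Mt1m had 1616, 1229, 207, 964 and 514 in ozone libraries, against 22.5, 52, 17.5, 68.7 and 22.8 in air libraries. For both the exposures were separate, with ozone 21 and 23 the lowest of the ozone libraries and air 5 and 9 the highest of the air libraries (log2 fold changes 4.13 ± 0.47 and 4.47 ± 0.57, limma adjusted p = 0.000797 and 0.00129). These paralogs are close in sequence and the counting could split reads between them, so each is uncertain and their sum is given: 5079 ± 2479 after ozone and 228 ± 120 in air (SD, n = 5 each), a 22.3-fold difference. The zinc importer gene Slc39a14 rose less (log2 fold change 0.60 ± 0.15, limma adjusted p = 0.0295), a call lost without ozone 22 or 23 or air 5, 9 or 12 (adjusted p up to 0.0759). These 4 were the risen genes among 12 metallothionein and zinc transporter genes tested, or 33.3% against 3.87% of all genes. The list had 0 fallen members and a median of 0.21. The zinc exporter Slc30a1 and the factor Mtf1 did not pass.

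Of 39 glucocorticoid-responsive genes tested, 14 rose (35.9%) and 2 fell (5.13%), against 3.87% and 3.45% of all genes, and the list median was 0.62. The risen members include Mt2A and Mt1, already counted among the metallothionein genes, and Cdkn1a, counted again among the p53 targets. Other lists share members as well, so shares of different lists are not independent. Leaving out 1 library at a time gave 8 to 17 risen and 2 to 2 fallen, and leaving out the 3 libraries with high mesothelial sums gave 8 risen and 2 fallen. Fkbp5, a co-chaperone that restrains the glucocorticoid receptor and a standard target of it, had 12116, 12604, 12784, 12439 and 13419 in ozone libraries, against 2195, 2923, 2585, 5137 and 7155 in air libraries. The ozone libraries were tightly grouped, whereas air 9 and 12 were above the other air libraries but still well below ozone (log2 fold change 1.81 ± 0.28, limma adjusted p = 0.00259). Tsc22d3, the anti-inflammatory protein GILZ, had 15268, 9066, 15734, 10525 and 12794 in ozone libraries, against 4062, 3686, 5744, 6285 and 7114 in air libraries. It rose without overlap (log2 fold change 1.25 ± 0.22, limma adjusted p = 0.00527). Errfi1, a feedback inhibitor of the EGF receptor, averaged 7004 ± 1877 after ozone and 2069 ± 490 in air (SD, n = 5 each) and rose (log2 fold change 1.74 ± 0.21, limma adjusted p = 0.000624).

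Cdkn1a, the cell-cycle inhibitor p21, had 9006, 7937, 3967, 7346 and 8509 in ozone libraries, against 1098, 797, 832, 1639 and 1466 in air libraries. Ozone 21 was the lowest ozone library and still exceeded air 9, the highest air library (log2 fold change 2.66 ± 0.26, limma adjusted p = 0.000209). Mertk, a receptor for the clearance of dying cells, rose (log2 fold change 1.30 ± 0.17, limma adjusted p = 0.00104). Pdk4, the kinase that shuts pyruvate out of mitochondrial oxidation, averaged 5558 ± 2181 after ozone and 1742 ± 1042 in air (SD, n = 5 each), and ozone 21 lay below air 12 (log2 fold change 1.74 ± 0.39, limma adjusted p = 0.0223). Its call was lost without ozone 16, 19 or 23 or air 5, 6 or 9 (adjusted p up to 0.0597). Per1, a clock gene with a glucocorticoid-driven promoter, also overlapped, with air 12 inside the ozone range (log2 fold change 0.82 ± 0.19, limma adjusted p = 0.0246) and lost its call without ozone 16, 19 or 23 or air 2, 5, 6 or 9 (adjusted p up to 0.0634). Klf9, a transcription factor induced by the hormone, rose by a small amount (log2 fold change 0.52 ± 0.12, limma adjusted p = 0.0219) and lost its call without ozone 19 or 23 or air 5 or 6 (adjusted p up to 0.059). Zbtb16, a zinc finger factor usually among the most responsive of these genes, had 2478, 3304, 2715, 2838 and 2730 in ozone libraries, against 624, 403, 1670, 2064 and 2357 in air libraries. Every ozone library was above every air library, but the air values spread from 403 to 2357 and the gene did not pass (log2 fold change 1.28 ± 0.45, limma adjusted p = 0.12).

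On the receptor side, Nr3c1, the glucocorticoid receptor itself, averaged 2282 ± 479 after ozone and 4013 ± 1256 in air (SD, n = 5 each) and fell (log2 fold change -0.79 ± 0.22, limma adjusted p = 0.0488), a call lost without ozone 16, 19, 21, 22 or 23 or air 2, 5, 6 or 12 (adjusted p up to 0.112). Ozone 23 and air 9 had almost the same Nr3c1 value, 2779 each after rounding. Hsd11b1, the enzyme that regenerates active hormone inside adipocytes, averaged 613 ± 129 after ozone and 381 ± 40.7 in air (SD, n = 5 each) and rose (log2 fold change 0.66 ± 0.16, limma adjusted p = 0.0252), a call lost without ozone 16, 19 or 23 or air 2, 5, 6 or 9 (adjusted p up to 0.0684). Rasd1, a small Ras-like GTPase named for its induction by dexamethasone, was one of the 2 list members that fell. It had 237, 320, 140, 530 and 272 in ozone libraries, against 2114, 4697, 3703, 3612 and 2050 in air libraries. All ozone libraries lay far below all air libraries, and the change was the strongest of the list in the downward direction (log2 fold change -3.48 ± 0.34, limma adjusted p = 0.000262). The other was Irs2, described with the insulin genes.

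**Figure D4:**
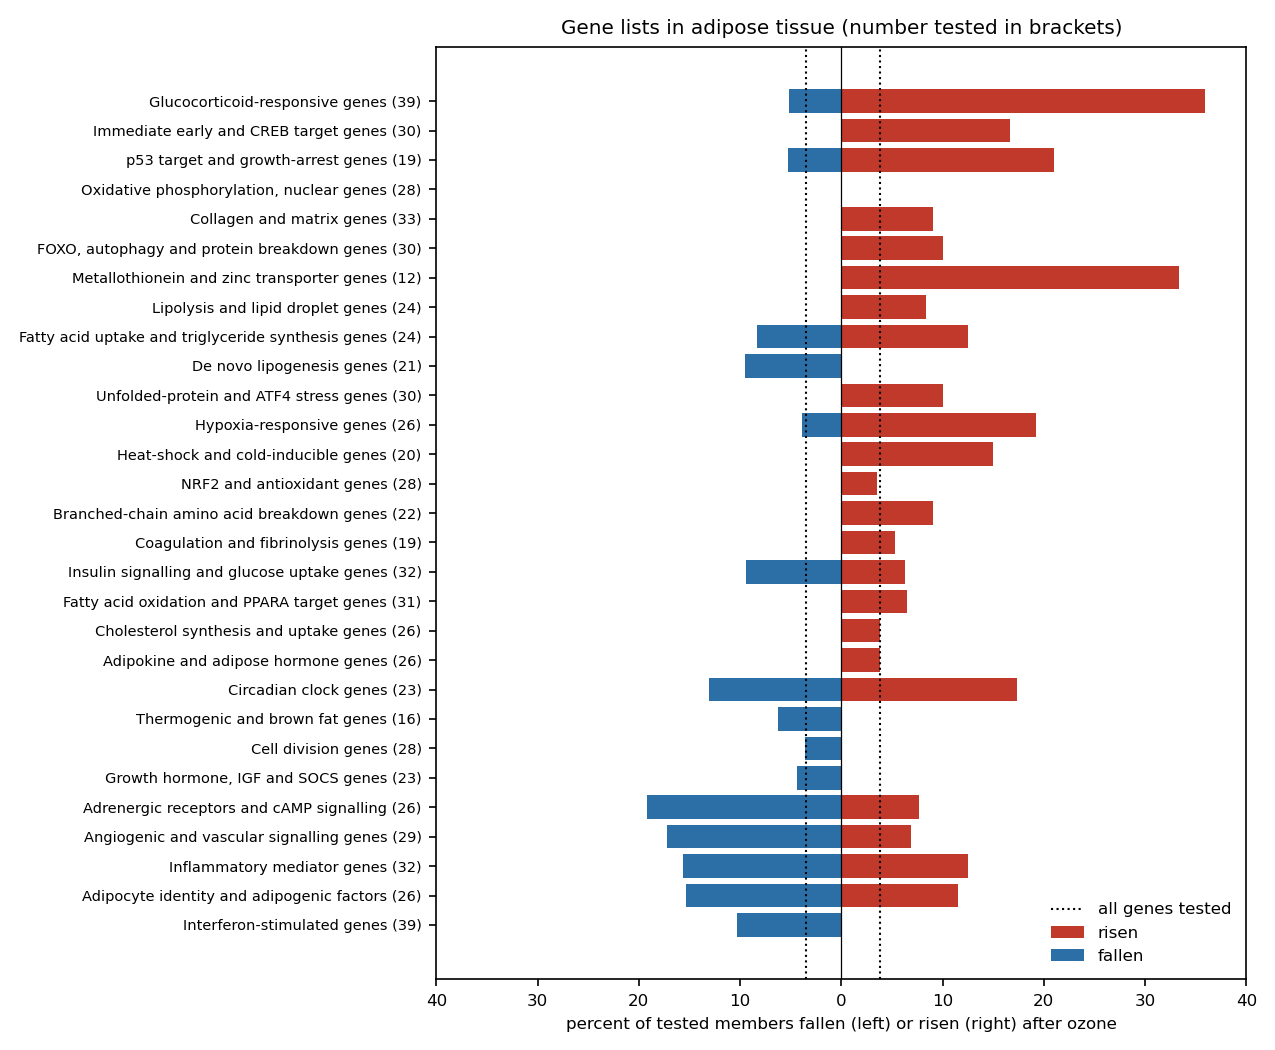
Percent of tested members of each pathway and response list that rose (right, red) or fell (left, blue) after ozone, lists ordered by median log2 fold change with the number tested in brackets and cell type marker lists not shown. Dotted lines mark the 3.87% risen and 3.45% fallen of all genes tested. Among the lists shown, glucocorticoid-responsive genes and metallothionein genes have the largest shares risen, and adrenergic and vascular signalling genes the largest shares fallen. Lists share members, and Mt2A and Mt1 are in both of the lists with the largest shares risen.

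Of 26 genes of adrenergic receptors and cyclic AMP signalling, 2 rose (7.69%) and 5 fell (19.2%), against 3.87% and 3.45% of all genes. The list median was -0.08. Leaving out 1 library at a time gave 1 to 2 risen and 4 to 5 fallen, and without the 3 libraries with high mesothelial sums 2 risen and 2 fallen. Adrb3, the beta-3 adrenergic receptor through which noradrenaline drives lipolysis in rodent adipocytes, had 788, 464, 138, 468 and 873 in ozone libraries, against 4678, 5367, 6317, 3750 and 6569 in air libraries. Ozone 21 was the lowest, and the highest ozone library, 873, was far below the lowest air library, 3750 (log2 fold change -3.50 ± 0.43, limma adjusted p = 0.00113). Of the 3 alpha-1 receptor genes 2 fell. Adra1d had 71, 89.6, 31.8, 71.8 and 71.8 in ozone libraries, against 371, 234, 330, 273 and 315 in air libraries, with no overlap (log2 fold change -2.22 ± 0.25, limma adjusted p = 0.000558). Adra1a, near 10 in the ozone libraries apart from 20.7 in ozone 23, and 24.3 to 58.7 in air, fell by 1.61 on the log2 scale (limma adjusted p = 0.0116). Adra1b, the third, had a positive fold change, averaging 86.6 after ozone and 39.5 in air (log2 fold change 1.21 ± 0.58, limma adjusted p = 0.252), and did not pass. Adrb1 and the 3 alpha-2 receptor genes did not pass either.

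Downstream of the receptors, Pde3b, the insulin-activated phosphodiesterase that breaks down cyclic AMP in adipocytes, had 9442, 9465, 10731, 5784 and 10856 in ozone libraries, against 4440, 3358, 4861, 3899 and 5068 in air libraries. It rose, with ozone 22 the lowest ozone library (log2 fold change 1.08 ± 0.19, limma adjusted p = 0.00549). Pde4d, another cyclic AMP phosphodiesterase, overlapped, with air 2 inside the ozone range (log2 fold change 1.28 ± 0.35, limma adjusted p = 0.0479). Its call was lost without ozone 16, 19, 21, 22 or 23 or air 5, 6, 9 or 12 (adjusted p up to 0.114) and in edgeR (adjusted p = 0.101). Pde4a fell (log2 fold change -0.75 ± 0.17, limma adjusted p = 0.0179), a call lost without air 9 (adjusted p = 0.0513). Mc5r, a melanocortin receptor that couples to cyclic AMP, had 807, 1408, 418, 630 and 952 in ozone libraries, against 48.4, 37, 29.8, 108 and 136 in air libraries. It rose with no overlap (log2 fold change 3.67 ± 0.44, limma adjusted p = 0.000953). Hrh3, the inhibitory H3 histamine receptor, fell to 11.7 to 51.1 after ozone, against 92.1 to 235 in air (log2 fold change -2.14 ± 0.38, limma adjusted p = 0.00595).

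Among 32 insulin signalling and glucose uptake genes, 2 rose (6.25%) and 3 fell (9.38%), against 3.87% and 3.45% of all genes. The list median was 0.07, with 2 to 5 risen and 3 to 3 fallen in fits without 1 library. The fallen genes were the adaptors that sit directly below the receptor and a kinase subunit they recruit. Irs1 had 288, 228, 204, 252 and 391 in ozone libraries, against 1382, 692, 650, 574 and 763 in air libraries. Air 2, the library with the highest muscle marker sum, was far above the other air libraries, and all ozone libraries were below all air libraries (log2 fold change -1.54 ± 0.24, limma adjusted p = 0.00285). Irs2 had 568, 512, 492, 814 and 571 in ozone libraries, against 873, 1182, 1471, 1086 and 1300 in air libraries. It fell by 1.00 ± 0.17 on the log2 scale, also without overlap (limma adjusted p = 0.00498). Pik3cb, a catalytic subunit of phosphoinositide 3-kinase, averaged 781 ± 203 after ozone and 1979 ± 669 in air (SD, n = 5 each) (log2 fold change -1.32 ± 0.24, limma adjusted p = 0.00701). Foxo1, the transcription factor that insulin signalling keeps out of the nucleus, averaged 4240 ± 743 after ozone and 1789 ± 389 in air (SD, n = 5 each) and rose (log2 fold change 1.26 ± 0.18, limma adjusted p = 0.00162). Cblb, a ubiquitin ligase, rose (log2 fold change 1.11 ± 0.16, limma adjusted p = 0.00197). These 5 genes were called in all 10 fits that left out 1 library. Slc2a4, the insulin-responsive glucose transporter GLUT4, had 7473, 7011, 2830, 5290 and 8600 in ozone libraries, against 7785, 4828, 5983, 4295 and 5165 in air libraries. The exposures overlapped widely and it did not pass (log2 fold change 0.09 ± 0.28, limma adjusted p = 0.896).

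Of 24 lipolysis and lipid droplet genes 2 rose (8.33%, against 3.87% of all genes) and 0 fell, with a median of 0.21. Cidec, which fuses droplets into the single large droplet of white adipocytes, had 46921, 50624, 35541, 40039 and 49210 in ozone libraries, against 11875, 16807, 13760, 21254 and 19966 in air libraries. The lowest ozone library lay well above the highest air library (log2 fold change 1.43 ± 0.18, limma adjusted p = 0.000953). Plin4, a droplet coat protein, had 56498, 111210, 98461, 73493 and 83809 in ozone libraries, against 32602, 39371, 30081, 42328 and 53907 in air libraries. Ozone 16 was close to air 12, but the groups did not overlap (log2 fold change 1.09 ± 0.21, limma adjusted p = 0.00967), and without the 3 libraries with high mesothelial sums the call ended, which left 1 risen member. The lipases themselves did not pass: Pnpla2, the adipose triglyceride lipase, averaged 24163 ± 5195 after ozone and 23413 ± 5105 in air (SD, n = 5 each) (log2 fold change 0.04 ± 0.20, limma adjusted p = 0.934), and Lipe, hormone-sensitive lipase, averaged 28829 ± 7555 after ozone and 20535 ± 4931 in air (SD, n = 5 each) (log2 fold change 0.48 ± 0.22, limma adjusted p = 0.223).

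Among 24 genes of fatty acid uptake and triglyceride synthesis 3 rose (12.5%) and 2 fell (8.33%), with a median of 0.19, against 3.87% and 3.45% of all genes. Fits without 1 library gave 0 to 3 risen and 1 to 3 fallen, and the fit without the 3 libraries with high mesothelial sums 0 risen and 1 fallen. Gpam, the mitochondrial enzyme of the first acylation step, averaged 1860 ± 574 after ozone and 4630 ± 1929 in air (SD, n = 5 each) and fell without overlap (log2 fold change -1.29 ± 0.28, limma adjusted p = 0.0164). Angptl8, an insulin-induced inhibitor of lipoprotein lipase activity, fell (log2 fold change -0.98 ± 0.22, limma adjusted p = 0.0192), with ozone 19 just above air 6 and the call lost without air 9 (adjusted p = 0.0522). The risen members were Pdk4, Lpin2 and Gpat4. Of 21 de novo lipogenesis genes 0 rose and 2 fell (9.52%, against 3.45% of all genes), with a median of 0.19. Leaving out 1 library gave 0 to 2 risen and 0 to 1 fallen. Srebf1, the transcription factor of insulin-driven lipid synthesis, had 4307, 4721, 1138, 4462 and 5319 in ozone libraries, against 9253, 9416, 9850, 7257 and 11251 in air libraries. Ozone 21 was far below the other ozone libraries (log2 fold change -1.40 ± 0.36, limma adjusted p = 0.0408), and the call was lost without ozone 16 or 19 or air 2, 5, 6, 9 or 12 (adjusted p up to 0.0914). Acacb, an acetyl-CoA carboxylase, was close to the threshold (log2 fold change -0.70 ± 0.20, limma adjusted p = 0.0494), and its call was lost in each of the 10 fits that left out 1 library (adjusted p up to 0.104, without ozone 19).

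Few of the other lipid and energy genes passed. Of 31 genes of fatty acid oxidation and PPARA targets 2 rose (6.45%, against 3.87% of all genes) and 0 fell (median 0.06). The risen members were Pdk4 and Ppard, a lipid-sensing nuclear receptor (log2 fold change 0.76 ± 0.16, limma adjusted p = 0.0121). The risen count was 1 to 4 without 1 library and 0 without the 3 libraries with high mesothelial sums. Of 26 cholesterol synthesis and uptake genes 1 rose, Fdps (3.85%, near the 3.87% of all genes), and 0 fell. Their median was 0.05, with 0 to 3 risen without 1 library. None of 28 nuclear genes of oxidative phosphorylation passed in limma, although 27 had positive fold changes, with a median of 0.28. At an unadjusted p under 0.05 there were 6, all higher after ozone, and edgeR called 0 and DESeq2 2. Pck1, the key enzyme of glyceroneogenesis in fat, ranged from 9393 in ozone 21 to 78490 in ozone 19 and from 31955 to 69896 in air, and did not pass (log2 fold change -0.31 ± 0.52, limma adjusted p = 0.779).

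Of 26 adipokine and adipose hormone genes tested, Agt rose (3.85%, near the 3.87% of all genes) and 0 fell. Their median was -0.01, with 1 to 3 risen without 1 library. Leptin, the satiety hormone of fat, had 43300, 61033, 39501, 29156 and 52700 in ozone libraries, against 42815, 17828, 30226, 24038 and 26465 in air libraries. Air 2 and 6 lay within the ozone range, and Lep did not pass (log2 fold change 0.69 ± 0.25, limma adjusted p = 0.119). Adiponectin, the most abundant adipocyte hormone, averaged 98939 ± 21700 after ozone and 81406 ± 7502 in air (SD, n = 5 each) (log2 fold change 0.26 ± 0.17, limma adjusted p = 0.407).

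Among 26 adipocyte identity and adipogenic factors 3 rose (11.5%) and 4 fell (15.4%), against 3.87% and 3.45% of all genes. Their median was -0.31. Leaving out 1 library at a time gave 2 to 4 risen and 1 to 4 fallen. Zfp423, a zinc finger factor that commits cells to the white adipocyte fate, had 3642, 4546, 4604, 3149 and 5402 in ozone libraries, against 1869, 1375, 1577, 1742 and 1552 in air libraries. It rose without overlap (log2 fold change 1.38 ± 0.16, limma adjusted p = 0.000558). Stat5a, which carries growth hormone and prolactin signals, had 333, 197, 201, 215 and 252 in ozone libraries, against 756, 518, 615, 542 and 569 in air libraries. It fell without overlap (log2 fold change -1.33 ± 0.17, limma adjusted p = 0.00091) and was the single call among 23 growth hormone, IGF and SOCS genes (median -0.06). That 1 call was 4.35% of its list, near the 3.45% of all genes that fell. Pparg, the master regulator of adipocytes, averaged 1371 ± 476 after ozone and 2308 ± 238 in air (SD, n = 5 each), with ozone 21 above air 5 (log2 fold change -0.81 ± 0.21, limma adjusted p = 0.0353). The Pparg call was lost without ozone 16, 19 or 23 or air 2, 5, 6, 9 or 12 (adjusted p up to 0.0824) and in edgeR. Fam13a, a gene linked to fat distribution in human genetics, had 1760, 1790, 2143, 1665 and 2099 in ozone libraries, against 4953, 5739, 6785, 5506 and 11612 in air libraries. The ozone libraries reached 2143 at most and the air libraries 4953 at least, with air 12 far above the rest (log2 fold change -1.81 ± 0.21, limma adjusted p = 0.000558). Of 16 thermogenic and brown fat genes tested Adrb3 alone fell (6.25%, against 3.45% of all genes) and 0 rose (median -0.03).

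Among 30 immediate early and CREB target genes 5 rose (16.7%, against 3.87% of all genes) and 0 fell, with a median of 0.42. CREB is the factor that cyclic AMP activates, and it binds the palindrome TGACGTCA. That sequence was in 2.99% of the promoters of tested genes, in 4.53% of those of risen genes (18 of 397) and in 1.07% of those of fallen genes (4 of 375). Other motifs were searched. The glucocorticoid response element was in 2 of 397 promoters of risen genes (0.504%). It was in 25 of 9967 promoters of tested genes (0.251%) and 0 of 375 of fallen genes, too few to compare. The E-box CACGTG was in 9.82% of promoters of risen genes and 9.18% of those of tested genes, and the SMAD box CAGACA in 16.1% of each. The promoter of Maff is shown because it is 1 of the 2 promoters of named genes that hold the palindrome, the other being that of Btg2. The 250 bases before its start lie at chr7:112792537-112792786 on the plus strand (RefSeq, GRCr8), with the palindrome in capitals.
Maff: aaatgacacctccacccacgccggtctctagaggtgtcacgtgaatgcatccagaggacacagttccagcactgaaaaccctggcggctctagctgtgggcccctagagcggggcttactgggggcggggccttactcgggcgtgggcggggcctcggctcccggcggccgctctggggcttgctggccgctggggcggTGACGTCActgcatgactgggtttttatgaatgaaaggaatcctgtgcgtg
Maff, a small stress-induced MAF factor, averaged 319 ± 91.4 after ozone and 154 ± 35.6 in air (SD, n = 5 each) and rose (log2 fold change 1.04 ± 0.22, limma adjusted p = 0.014). Klf4, an early-response zinc finger factor, averaged 4899 ± 1709 after ozone and 1829 ± 415 in air (SD, n = 5 each) and rose (log2 fold change 1.37 ± 0.25, limma adjusted p = 0.00754). Myc, the growth-control factor, rose less (log2 fold change 0.84 ± 0.16, limma adjusted p = 0.00787). Btg2, an antiproliferative early gene, rose (log2 fold change 0.81 ± 0.20, limma adjusted p = 0.0287), a call lost without ozone 16, 19 or 23 or air 2, 5, 6 or 9 (adjusted p up to 0.067). The fifth was Pde4d. The list had 3 to 7 risen members without 1 library and 2 without the 3 libraries with high mesothelial sums.

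Of 23 circadian clock genes 4 rose (17.4%) and 3 fell (13.0%), against 3.87% and 3.45% of all genes, with a median of -0.02. Fits without 1 library gave 1 to 4 risen and 1 to 3 fallen. Arntl, the activator BMAL1, averaged 621 ± 64.7 after ozone and 289 ± 108 in air (SD, n = 5 each) (log2 fold change 1.18 ± 0.23, limma adjusted p = 0.0105). Dbp, an output factor that peaks when Arntl is low, had 229, 267, 464, 262 and 272 in ozone libraries, against 464, 1168, 795, 1004 and 2052 in air libraries. Ozone 21 and air 2 were equal after rounding, and the other ozone libraries were lower than every air library (log2 fold change -1.75 ± 0.34, limma adjusted p = 0.0101). Nfil3, which opposes Dbp at the same sites, rose (log2 fold change 1.36 ± 0.30, limma adjusted p = 0.0189), a call lost without ozone 19 or air 6 (adjusted p up to 0.0509). Per3 fell (log2 fold change -0.88 ± 0.20, limma adjusted p = 0.0235), a call lost without ozone 16 or 19 or air 6 or 12 (adjusted p up to 0.0611). Without the 3 libraries with high mesothelial sums none of the clock genes passed in limma, and 6 were higher and 4 lower at an unadjusted p under 0.05. A time of sampling that followed the library numbers cannot be told apart from ozone.

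Several named genes encode membrane carriers. They were brought together after their values were seen and are no tested list. Slc16a13, a monocarboxylate carrier of the plasma membrane, had 930, 1268, 792, 1121 and 881 in ozone libraries, against 77.6, 94.2, 74.1, 152 and 104 in air libraries. The lowest ozone value, 792, stood far above the highest air value, 152 (log2 fold change 3.33 ± 0.20, limma adjusted p = 6.79e-06). Slc16a12, a creatine carrier of the same family, averaged 432 ± 163 after ozone and 79.5 ± 25.1 in air (SD, n = 5 each) (log2 fold change 2.41 ± 0.27, limma adjusted p = 0.000527). Slc7a5, the light chain of the LAT1 carrier for large neutral amino acids, had 414, 550, 591, 747 and 693 in ozone libraries, against 104, 105, 132, 165 and 132 in air libraries. It rose together with its heavy chain Slc3a2, which averaged 3341 ± 266 after ozone and 1677 ± 246 in air (SD, n = 5 each) (log2 fold changes 2.21 ± 0.19 and 1.00 ± 0.13, limma adjusted p = 9.27e-05 and 0.00091). Slc6a6, the taurine carrier, fell to 193 to 345 after ozone, against 579 to 917 in air (log2 fold change -1.54 ± 0.19, limma adjusted p = 0.000756).

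Among 22 genes of branched-chain amino acid breakdown 2 rose (9.09%, against 3.87% of all genes), Slc7a5 and Dbt, and 0 fell (median 0.12). Dbt, a core subunit of the branched-chain ketoacid dehydrogenase, averaged 2501 ± 561 after ozone and 1304 ± 189 in air (SD, n = 5 each) (log2 fold change 0.92 ± 0.18, limma adjusted p = 0.00921). Aspa, which splits N-acetylaspartate into acetate and aspartate, is added here after its values were seen. It had 4150, 5051, 4703, 3489 and 5255 in ozone libraries, against 1432, 1205, 1319, 993 and 1460 in air libraries. The ozone libraries were all at least 2 times the highest air library (log2 fold change 1.82 ± 0.15, limma adjusted p = 9.27e-05).

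Stress programmes were represented by a few members each. Unfolded-protein and ATF4 stress genes had 3 risen (10%, against 3.87% of all genes) and 0 fallen of 30 (median 0.15). They were Atf4, the factor of the amino acid and stress response (log2 fold change 0.87 ± 0.16, limma adjusted p = 0.00716), Edem1, which directs misfolded glycoproteins to breakdown (log2 fold change 1.35 ± 0.19, limma adjusted p = 0.00129), and Slc3a2. Of 20 heat-shock and cold-inducible genes 3 rose (15%, against 3.87% of all genes) and 0 fell (median 0.14). Rbm3, a cold-inducible RNA-binding protein, averaged 2997 ± 489 after ozone and 1533 ± 335 in air (SD, n = 5 each) (log2 fold change 0.98 ± 0.16, limma adjusted p = 0.00426). Cirbp, its relative, rose by 0.66 ± 0.15 (log2), a call lost without ozone 19 (adjusted p = 0.0515). The third was Cryab, a small heat-shock protein that is also abundant in muscle. The risen count of this list was 1 to 3 without 1 library and 1 without the 3 libraries with high mesothelial sums, and that of the unfolded-protein list 3 to 5 and 3.

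Of 19 p53 target and growth-arrest genes 4 rose (21.1%) and 1 fell (5.26%), against 3.87% and 3.45% of all genes (median 0.40). Fits without 1 library gave 2 to 6 risen and 1 to 2 fallen. Without the 3 libraries with high mesothelial sums there were 2 risen and 0 fallen. Besides Cdkn1a the 4 risen genes included Pmaip1, the pro-apoptotic protein NOXA, which averaged 217 ± 71 after ozone and 84.1 ± 20.6 in air (SD, n = 5 each) (log2 fold change 1.34 ± 0.24, limma adjusted p = 0.00612). Gadd45a, a growth-arrest gene of the same list, averaged 592 ± 172 after ozone and 1146 ± 245 in air (SD, n = 5 each) and fell (log2 fold change -0.97 ± 0.19, limma adjusted p = 0.00967). Among 28 cell division genes 0 rose and 1 fell (median -0.05), or 3.57%, near the 3.45% of all genes. The fallen gene was Ccnd1, the cyclin that starts the cycle, at 675 ± 135 after ozone and 1261 ± 362 in air (SD, n = 5 each) (log2 fold change -0.88 ± 0.19, limma adjusted p = 0.0177).

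Of 26 hypoxia-responsive genes 5 rose (19.2%) and 1 fell (3.85%), against 3.87% and 3.45% of all genes (median 0.14). Fits without 1 library gave 2 to 6 risen and 1 to 3 fallen, and the fit without the 3 libraries with high mesothelial sums 2 risen and 2 fallen. Ndrg1, a stress-responsive gene also induced by other signals, averaged 5767 ± 961 after ozone and 3129 ± 827 in air (SD, n = 5 each) (log2 fold change 0.91 ± 0.19, limma adjusted p = 0.0149). Hif3a, an inhibitory HIF subunit, rose (log2 fold change 1.56 ± 0.36, limma adjusted p = 0.0219), a call lost without ozone 23 or air 5 or 6 (adjusted p up to 0.059). P4ha1, a prolyl hydroxylase of collagen and a classical HIF target, fell (log2 fold change -0.81 ± 0.16, limma adjusted p = 0.0117). Lox, Epas1 and Bnip3 were the other risen members. FOXO, autophagy and protein breakdown genes had 3 risen, Foxo1, Atg7 and Bnip3, and 0 fallen of 30 (median 0.24), with 2 to 5 risen without 1 library and 2 without the 3 libraries with high mesothelial sums. The 3 risen genes were 10% of this list, against 3.87% of all genes.

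Among 28 NRF2 and antioxidant genes 1 rose (3.57%, near the 3.87% of all genes) and 0 fell (median 0.13). Prdx6, a peroxiredoxin that also repairs oxidised phospholipid, had 6000, 6357, 7938, 6642 and 7335 in ozone libraries, against 2989, 4157, 2719, 4924 and 4167 in air libraries. It rose without overlap (log2 fold change 0.88 ± 0.17, limma adjusted p = 0.00967). Hmox1, the haem oxygenase induced by oxidants, averaged 388 ± 41.1 after ozone and 311 ± 91.9 in air (SD, n = 5 each) and did not pass (log2 fold change 0.36 ± 0.19, limma adjusted p = 0.288). The standard NRF2 targets Nqo1, Gclc, Gclm and Txnrd1 had log2 fold changes between -0.08 and 0.13.

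Of 32 inflammatory mediator genes 4 rose (12.5%) and 5 fell (15.6%), against 3.87% and 3.45% of all genes. Their median was -0.30. Leaving out 1 library at a time gave 2 to 4 risen and 2 to 5 fallen, and without the 3 libraries with high mesothelial sums 2 risen and 1 fallen. Csf3, the granulocyte growth factor G-CSF, had 128, 104, 22.3, 94.7 and 60.9 in ozone libraries, against 0, 2.64, 2.06, 5.22 and 5.26 in air libraries. It was near 0 in air and detected in every ozone library, lowest in ozone 21 (log2 fold change 4.41 ± 0.58, limma adjusted p = 0.0011). Il1r2, the decoy receptor of interleukin-1, averaged 128 ± 48.6 after ozone and 34.4 ± 17.7 in air (SD, n = 5 each) and rose (log2 fold change 1.97 ± 0.41, limma adjusted p = 0.0138). Relb, a subunit of the alternative NF-kappa-B pathway, had 67.4, 69.2, 63.7, 63.5 and 78.3 in ozone libraries, against 147, 167, 157, 130 and 188 in air libraries, and Nfkb2, its partner, fell with it (log2 fold changes -1.19 ± 0.16 and -0.80 ± 0.15, limma adjusted p = 0.00104 and 0.00686). Nfkbiz, a nuclear modulator of NF-kappa-B, rose (log2 fold change 1.24 ± 0.29, limma adjusted p = 0.0233), with ozone 22 high and the call lost without air 2 or 12 (adjusted p up to 0.0565). Ikbke, a kinase of interferon and NF-kappa-B signalling, is added here after its values were seen. It was 193 to 219 after ozone, against 475 to 538 in air (log2 fold change -1.30 ± 0.11, limma adjusted p = 9.27e-05).

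Of 39 interferon-stimulated genes 38 had a negative fold change and the median was -0.61, but only 4 fell and 0 rose at the threshold. These 4 were 10.3% of the list, against 3.45% of all genes. Leaving out 1 library at a time gave 0 to 0 risen and 0 to 13 fallen, and without the 3 libraries with high mesothelial sums the counts were 0 risen and 0 fallen, with 5 lower at an unadjusted p under 0.05. On all 10 libraries edgeR called 2 lower and DESeq2 7. The summed value of the list was 46731 in ozone 16 and 21585 to 24056 in the other ozone libraries, against 27456 to 59863 in air. Irf1, the interferon-gamma-driven transcription factor, averaged 511 ± 33.3 after ozone and 825 ± 200 in air (SD, n = 5 each) (log2 fold change -0.66 ± 0.17, limma adjusted p = 0.0326). Its call was lost without ozone 16, 19 or 23 or air 5, 6 or 9 (adjusted p up to 0.0816). The call of Cxcl9, a chemokine for T cells, was lost without ozone 19, 22 or 23 or air 2, 5, 6 or 9 (adjusted p up to 0.0894). The call of its relative Cxcl11 was lost without ozone 19, 22 or 23 or air 2, 6, 9 or 12 (adjusted p up to 0.107). The call of Tap1, a peptide transporter of antigen presentation, was lost without ozone 16, 19 or 23 or air 2, 5, 6, 9 or 12 (adjusted p up to 0.113).

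Of 29 angiogenic and vascular signalling genes 2 rose (6.90%) and 5 fell (17.2%), against 3.87% and 3.45% of all genes, with a median of -0.12. Fits without 1 library gave 2 to 2 risen and 2 to 5 fallen, and the fit without the 3 libraries with high mesothelial sums 2 risen and 4 fallen. Nrp2, a co-receptor of VEGF and semaphorins, had 1004, 753, 653, 875 and 766 in ozone libraries, against 1690, 1596, 1994, 1427 and 1604 in air libraries. It fell without overlap (log2 fold change -1.04 ± 0.14, limma adjusted p = 0.00114). Ednra, the endothelin A receptor of vascular muscle, averaged 277 ± 16 after ozone and 452 ± 47.2 in air (SD, n = 5 each) (log2 fold change -0.70 ± 0.12, limma adjusted p = 0.00444). Aplnr, the apelin receptor, was 361 to 959 after ozone and 688 to 2050 in air (log2 fold change -1.53 ± 0.33, limma adjusted p = 0.0192), a call lost without ozone 19 or air 6 or 9 (adjusted p up to 0.0531). Kdr, the main VEGF receptor, averaged 7125 ± 1152 after ozone and 4167 ± 545 in air (SD, n = 5 each) and rose (log2 fold change 0.77 ± 0.15, limma adjusted p = 0.00911), as did Sox17, an arterial endothelial factor (log2 fold change 0.87 ± 0.15, limma adjusted p = 0.00446).

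Marker lists of other cell types are short and held few calls. Where a list held a call, its share was above the 3.87% risen or 3.45% fallen of all genes. Kdr and Sox17 were the 2 risen of 18 endothelial markers (11.1%), and 0 fell (median -0.16, summed level 35102 to 42642 after ozone and 34263 to 40978 in air). Of 19 macrophage and monocyte markers 2 rose (10.5%), Mertk and Lyve1, and 0 fell (median 0.11, 1 to 4 risen without 1 library). Their summed level was 39941 to 50580 after ozone and 25244 to 53711 in air. Lyve1, a hyaluronan receptor of resident macrophages and lymphatic endothelium, lost its call without air 2 or 12 (adjusted p up to 0.052). Marco was listed at 0 in all libraries. Of 14 pericyte and smooth muscle markers 1 fell (7.14%), Kcnj8, a potassium channel of pericytes (log2 fold change -0.79 ± 0.16, limma adjusted p = 0.0104). Of 3 neutrophil markers tested 1 fell (33.3%), Csf3r, the receptor for G-CSF (log2 fold change -1.02 ± 0.25, limma adjusted p = 0.0282). It was low, averaging 24.5 after ozone and 51.9 in air. Of 10 mast cell and eosinophil markers 1 fell (10%), Hdc, which makes histamine (log2 fold change -0.84 ± 0.21, limma adjusted p = 0.0334). For both lists the fallen count was 0 to 1 without 1 library and 0 without the 3 libraries with high mesothelial sums. No marker passed in limma among 19 of T and NK lymphocytes (median -0.39), 5 of B lymphocytes and plasma cells, 18 of fibroblasts and adipose progenitors (median 0.19), 10 of nerve and Schwann cells, 4 of red blood cells, 4 of mammary and other epithelium, 3 of brown adipocytes and 1 of male reproductive tract epithelium. The 12 mitochondrially encoded genes did not pass either. At an unadjusted p under 0.05 these lists held 4 lower T and NK markers and 2 lower B-cell markers and no other member, and edgeR called 0 of them and DESeq2 1, a B-cell marker. The part of these cell types in the results was not tested.

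Several of the largest changes were in genes outside the lists. Mlph, melanophilin, an adaptor that moves organelles along actin, had 1704, 2279, 1815, 1636 and 1487 in ozone libraries, against 62.6, 95.1, 64.8, 388 and 141 in air libraries. Air 9 was high among the air libraries and still far below ozone (log2 fold change 3.91 ± 0.43, limma adjusted p = 0.000624). Rprml, a reprimo-like membrane protein, was 67.9 to 287 after ozone and 3.34 to 18.4 in air (log2 fold change 3.63 ± 0.47, limma adjusted p = 0.00101). Gpr157, a G-protein-coupled receptor, and Soga3 rose as well (log2 fold changes 2.41 ± 0.34 and 2.43 ± 0.30). The unnamed locus AABR07014424.1 was at 43.1 to 157 after ozone and 0 to 8.23 in air (log2 fold change 4.35 ± 0.59, limma adjusted p = 0.00122).

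Other genes outside the lists had some of the lowest fold changes. Ralgds, an activator of Ral that Ras recruits, had 235, 280, 352, 352 and 220 in ozone libraries, against 1015, 985, 972, 897 and 792 in air libraries. The groups were far apart relative to their spread (log2 fold change -1.71 ± 0.16, limma adjusted p = 0.000144). Rasgef1b, an exchange factor of the Ras family, fell (log2 fold change -1.74 ± 0.34, limma adjusted p = 0.00961). Prr5l, an mTORC2-associated protein, also fell (log2 fold change -1.72 ± 0.28, limma adjusted p = 0.00401). Gdf5, a BMP-family ligand, fell to 22.3 to 65.6 after ozone, against 101 to 282 in air (log2 fold change -1.80 ± 0.33, limma adjusted p = 0.00671). Prima1, which anchors acetylcholinesterase in membranes, Wipf3, an actin regulator, the protease Tmprss2 and the nuclear matrix protein Banp fell as well, with log2 fold changes between -1.82 and -1.67.

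To ask where adipose tissue differed from the rest, the ozone effect in adipose tissue was set against the mean ozone effect of lung, liver, adrenal gland, hypothalamus and muscle in 1 limma fit over 11111 genes. Only genes with a mean value of at least 10 in each of the 6 tissues entered. Genes low in another tissue, such as Adrb3, Mc5r and Csf3, could therefore not appear. In fits within single tissues Adrb3 also fell in adrenal gland (log2 fold change -3.01 ± 0.35, limma adjusted p = 0.000112). It did not pass in lung (-2.40) or muscle (-0.75). Mc5r passed in lung (1.91) and, with a negative value, in muscle (-1.15). Csf3 was tested in adipose tissue only. The difference passed for 539 genes (4.85%), higher in adipose tissue for 241 (2.17%) and lower for 298 (2.68%). Its standard error pools the spread of all 6 tissues. Genes more variable in adipose tissue, such as Ppp1r3c and Wipf3, therefore have standard errors and adjusted p-values that are too low. Slc16a13 differed by 3.42 ± 0.24 (adjusted p = 6.36e-17) and lay between -0.51 and 0.46 in the other tissues. Thbs1 differed by 2.64 ± 0.41 (adjusted p = 7.39e-06). Its log2 fold change passed within adrenal gland (1.04), lung (0.99) and muscle (-1.43) as well, so higher values after ozone were shared with 2 other tissues. Rasd1 stood lowest, at -4.05 ± 0.37 (adjusted p = 1.32e-12). It fell in adipose tissue and had positive values, 0.20 to 1.06, in the other 5.

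Gadd45a likewise had a negative fold change in adipose tissue (-0.97) and positive ones elsewhere, up to 1.22 in muscle (difference -1.61 ± 0.22, adjusted p = 3.85e-07). Mt1m also had high fold changes in other tissues, 4.12 in lung and 3.17 in hypothalamus. Its adipose value, 4.47, differed from the mean of all 5 other tissues, 1.98, by 2.49 ± 0.64 (limma adjusted p = 0.0115). That mean includes 1.21 in liver and -1.36 in adrenal gland. Slc16a12 (2.58 ± 0.34), Cyr61 (2.78 ± 0.53), Wipf3 (-1.997 ± 0.26), Slc6a6 (-1.60 ± 0.31) and Zfp395 (-1.59 ± 0.25) also passed. Ppp1r3c, a glycogen-targeting subunit of protein phosphatase 1, did not pass in adipose tissue, where air 2 held 2950 and the other air libraries 245 to 610. It rose by 3.02 in muscle and 2.07 in liver, and its difference was -1.59 ± 0.38 (adjusted p = 0.00519). Within adipose tissue alone its log2 fold change was -0.88 ± 0.60, so the pooled standard error understates the adipose spread.

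**Figure D5:**
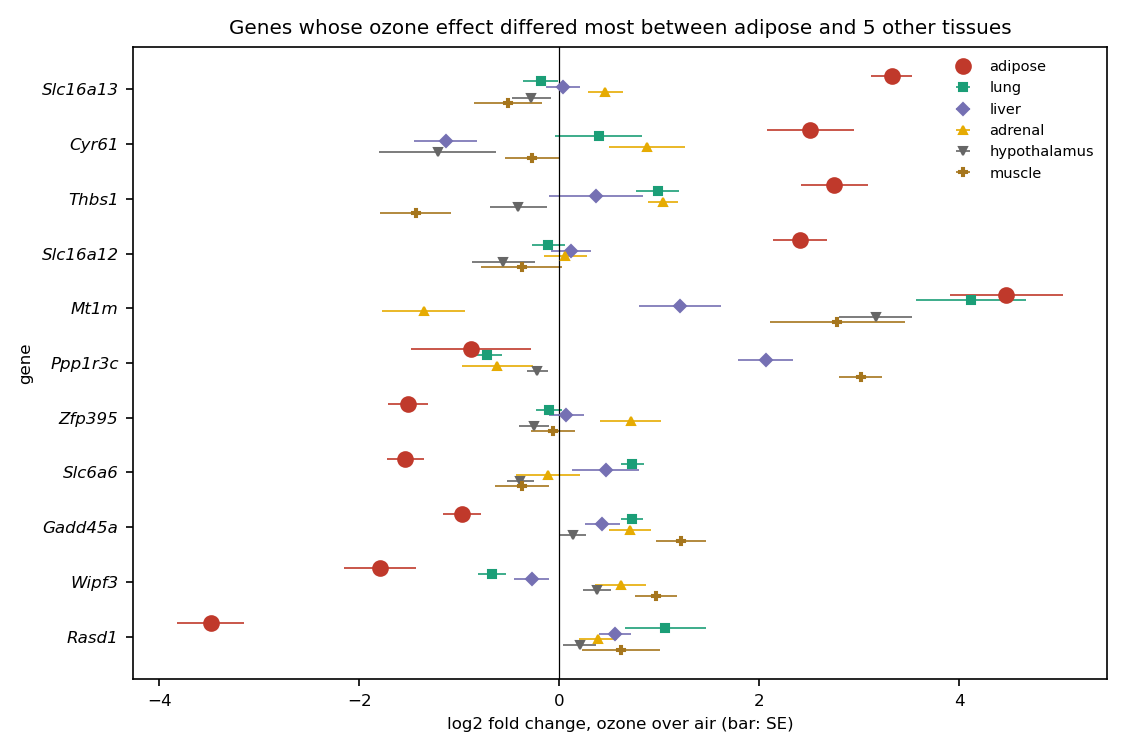
Log2 fold change, ozone over air, with its standard error in 6 tissues for 5 genes with high and 6 with low differences between adipose tissue and the mean of the other 5 tissues. Adipose tissue (large red circles) stands apart for Slc16a13 and Rasd1, while for Mt1m it is close to lung and for Ppp1r3c the muscle and liver values stand apart.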

How the data were processed

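The adipose table that the authors deposited holds a normalised signal per gene and library. Its values are whole-number read counts scaled by a single factor in each library (100% of values whole, tolerance 0.01), which gave the recovered reads. Partek, DESeq2 and the rn6 build are named, without roles or versions, in the submitters' processing notes. How reads were aligned and counted, and with which strand setting, is not given in the sources used here; paralogs and overlapping or antisense genes are therefore uncertain. Of 19465 entries, 24 with a date for a symbol were left out.

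Genes with a mean of at least 10 entered limma 3.58.1 (R 4.3.3) as log2(value + 1), with a mean-variance trend, robust moderation, two-sided tests and Benjamini-Hochberg adjustment over all 14252 genes at a threshold of 0.05. The contrast between tissues used 1 limma fit over the 6 tables, each keeping its own level, for genes with a mean of at least 10 in each. The spread of each gene was pooled over the tissues. Alternatives were edgeR 4.0.16 and DESeq2 1.42.0 on recovered reads, other pseudocounts, filters, scalings and weights, and fits without 1 library or, added after the data were seen, without the 3 libraries high in mesothelial markers. Between libraries of a group the chi-square per degree of freedom was at least 39.6, so none repeated another. The tests were also run on simulated counts with known changes, drawn for each gene independently and without differences in tissue composition. No error rate for these data is taken from that run.

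The libraries, 46 gene lists and naming rule were chosen with earlier results of these data known. The rule took the 15 highest and 15 lowest fold changes among called genes with a mean of at least 50, up to 5 called members of each list by adjusted p, 19 genes set by name, and the 6 highest and 6 lowest differences between tissues. A few genes are not reported here and were left out of the lists and the naming rule's picks, though they stayed in every fit. Of the 142 other genes, those that carry a result are described. Promoters were matched by symbol to RefSeq's GRCr8 table for 77 of 114 genes.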

Additional observations from a re-analysis of the deposited data

Results flagged for a closer look

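In groups of 5 libraries, 21 of 234 groups of named genes and marker sums had 1 library far from the other 4. Chance gives about 1 in 20 only for independent groups of normally distributed values. These values were not logged and the genes were selected and related, so that rate is no baseline here. Summed skeletal muscle markers were 265317 in air 2, against 3124 to 42745 in the other air libraries. In air 2 several other genes also stood apart: Ppp1r3c at 2950 (others 245 to 610), Irs1 at 1382 (574 to 763), Gadd45a at 1579 (1006 to 1097), Pde4d at 458 (120 to 164) and Btg2 at 950, below the others (1331 to 1476). The part of muscle RNA in these values was not tested. Without air 2, 427 genes rose and 326 fell. All 1041 called genes that were still tested kept their direction, which is nearly given for genes called with the same libraries included. Summed mesothelial markers were 13425 in ozone 22, against 342 to 1073 in the other ozone libraries, and in the same library Irs2 was 814 (492 to 571), Nfkbiz 934 (343 to 435) and Pde3b 5784 (9442 to 10856).

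Air 12 stood above the other air libraries for Per1 at 2155 (1046 to 1334), Errfi1 at 2934 (1709 to 1920) and Fam13a at 11612 (4953 to 6785). Air 9 did so for Mlph at 388 (62.6 to 141) and Atg7 at 539 (255 to 328). Ozone 21 was apart for Srebf1 at 1138 (4307 to 5319) and Dbp at 464 (229 to 272), ozone 23 for Adra1a at 20.7 (7.29 to 10.8) and Myc at 1326 (928 to 1021), ozone 16 for Slc3a2 at 3801 (3170 to 3331) and ozone 19 for Gadd45a at 892 (459 to 555).

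The ozone effect in adipose tissue differed from the mean of the other 5 tissues, by the limma contrast on the log2 scale, for Slc16a13 (3.42), Cyr61 (2.78), Thbs1 (2.64), Slc16a12 (2.58), Mt1m (2.49), Rasd1 (-4.05), Wipf3 (-1.997), Gadd45a (-1.61), Slc6a6 (-1.60), Zfp395 (-1.59) and Ppp1r3c (-1.59).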

How the results depend on the processing

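Against 551 risen and 492 fallen genes, DESeq2 on recovered reads called 837 and 779, limma with array weights 767 and 726, edgeR 554 and 476, and the fit without ozone 22 and air 5 and 9 called 234 and 156. Leaving out 1 library at a time gave 331 to 608 risen and 266 to 616 fallen. The risen count moved by over 1.5 times without ozone 19 (340), ozone 23 (349), air 5 (331) or air 9 (366), and the fallen count without ozone 19 (282), ozone 23 (306), air 2 (326), air 5 (278), air 6 (266) or air 9 (268). Fewer libraries per group entered each of these fits. Of the 1043 called genes, 987 were also called by edgeR and 1043 by DESeq2. The share of risen genes among calls was 52.8%, and 49.7 to 60.0% over the alternatives. No scaling moved the median of all genes by more than 0.01 on the log2 scale.

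Of the 105 called genes among those searched by name, 81 were called in all 10 fits that left out 1 library, 69 in all 11 other fits, and none changed direction. Since these fits share their libraries with the main fit, an unchanged direction adds little. Of the genes that did not pass, 3 had a fold change that changed sign: Pnpla2 (0.04, from -0.053 to 0.18 without 1 library), Slc2a4 (0.09, from -0.053 to 0.35 without 1 library and -0.058 without ozone 22 and air 5 and 9) and Pck1 (-0.31, from -0.60 to 0.16 without 1 library, the highest without ozone 21).

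No paired analysis was possible because the adipose ozone and air libraries share no replicate number. In the contrast between tissues, a replicate block on equal numbers gave 540 calls, 241 higher and 299 lower, against 539 without it. Of 21 tissue pairs, 7 had correlated deviations over 0.1 at equal numbers and 4 correlated best at equal numbers. The correlations lay on both sides of 0, from -0.41 to 0.43. With only 5 or 6 libraries compared, some best matches arise by chance, so this check cannot decide. Equal numbers were not taken as pairs because the labels do not say that they are the same rat. Depth, at least 14227133 reads in each library, limits genes with few reads, such as Csf3 in air.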
